A study of Mus musculus with 47 samples.

Results

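Haemoglobin transcripts were followed across 47 RNA-seq libraries of mouse cerebral cortex. Adult haemoglobin is built of alpha chains, encoded by Hba-a1 and Hba-a2, and beta chains, encoded by Hbb-bs and Hbb-bt. Alas2 encodes the erythroid form of 5-aminolevulinate synthase, the enzyme that starts haem synthesis in developing red cells. These 5 genes were taken by symbol, out of 48795 genes in the deposited tables, and all 5 passed the filter on low counts that left 19174 genes for testing. Red cells lose their nucleus but the youngest of them, the reticulocytes, still carry globin and Alas2 mRNA, so in bulk brain RNA these transcripts are commonly read as a sign of blood left in the vessels. Neurons and other brain cells have also been described to make some globin. In bulk tissue, fewer cells of a type and less RNA per cell cannot be told apart.

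The mice were 6 months old and on a C57BL background, and each library came from dissected cortex. The 6 genotypes were WT, Ccdc82+/-, Ccdc82-/-, Q140, Q140 x Ccdc82+/- and Q140 x Ccdc82-/-. Q140, a knock-in of an expanded CAG repeat into the Huntington's disease gene Htt, was heterozygous wherever it was present, and Ccdc82 is the gene reduced or deleted in the crosses. Each genotype had 4 females and 4 males, except Q140 x Ccdc82-/- with 3 females and 4 males. Perfusion before dissection was neither mentioned nor denied in the labels. Library totals ran from 43554594 to 61370843 counts. Levels are given as CPM, counts scaled to a common library size with TMM factors. Median Ccdc82 was 15.9 CPM in WT, 11.1 CPM in Ccdc82+/- and 5.24 CPM in Ccdc82-/- libraries, in the order of the labels. Cortical neuron markers summed to between 7385 and 8588 CPM in every library. The labels number the mice within genotype and sex but do not say how they were raised or dissected, so p-values measure the spread between these libraries.

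In GRCm38 with GENCODE M21, Hba-a1 (ENSMUSG00000069919) lies at chr11:32283511-32284465 and Hba-a2 (ENSMUSG00000069917) at chr11:32296489-32297298, both on the plus strand. Hbb-bs (ENSMUSG00000052305) lies at chr7:103826534-103828096 and Hbb-bt (ENSMUSG00000073940) at chr7:103812524-103813996, both on the minus strand. Alas2 (ENSMUSG00000025270) is X-linked, at chrX:150547375-150570638 on the plus strand. The 4 globin genes have 3 exons each and the longest Alas2 transcript has 11. The 5 genes therefore sit on 3 chromosomes, with the alpha pair and the beta pair in separate clusters.

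The upstream sequences of these genes are shown for description only. Each line gives the 250 bases before the RefSeq transcription start (build GRCm38.p6), 5′ to 3′ on the gene's strand. RefSeq and GENCODE place these starts differently. By the GENCODE coordinates above, the last part of each window lies inside the annotated gene. For Hba-a1 and Hbb-bs that part is most of the window. Upstream here therefore means upstream of the RefSeq start. Capitals mark 4 short motifs searched on both strands. TATAA is the core of a TATA box and reads TTATA on the other strand. CCAAT is a general promoter element and reads ATTGG there. CACCC, reading GGGTG on the other strand, is a core bound by Krüppel-like factors such as KLF1. GATAA, reading TTATC there, is a core bound by GATA factors. The Hba-a1 window matched that of Hba-a2 at 247 of 247 aligned bases, so Hba-a2 stands for both.
Hba-a2, chr11:32296242-32296491, plus strand: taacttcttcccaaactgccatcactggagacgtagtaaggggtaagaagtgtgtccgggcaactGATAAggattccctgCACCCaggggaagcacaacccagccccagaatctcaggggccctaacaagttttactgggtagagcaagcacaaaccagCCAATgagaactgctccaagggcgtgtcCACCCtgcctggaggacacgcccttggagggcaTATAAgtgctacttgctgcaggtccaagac
Hbb-bs, chr7:103827929-103828178, minus strand: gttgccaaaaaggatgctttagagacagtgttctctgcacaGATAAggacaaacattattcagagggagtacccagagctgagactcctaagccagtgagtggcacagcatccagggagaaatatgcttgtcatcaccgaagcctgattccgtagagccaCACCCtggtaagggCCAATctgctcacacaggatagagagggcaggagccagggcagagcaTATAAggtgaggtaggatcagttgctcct
Hbb-bt, chr7:103813924-103814173, minus strand: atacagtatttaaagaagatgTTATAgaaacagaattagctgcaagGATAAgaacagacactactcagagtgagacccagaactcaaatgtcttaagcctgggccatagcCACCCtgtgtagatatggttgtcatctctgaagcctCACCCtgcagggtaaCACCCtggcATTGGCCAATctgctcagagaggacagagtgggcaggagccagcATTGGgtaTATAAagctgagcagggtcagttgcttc
Alas2, chrX:150547167-150547416, plus strand: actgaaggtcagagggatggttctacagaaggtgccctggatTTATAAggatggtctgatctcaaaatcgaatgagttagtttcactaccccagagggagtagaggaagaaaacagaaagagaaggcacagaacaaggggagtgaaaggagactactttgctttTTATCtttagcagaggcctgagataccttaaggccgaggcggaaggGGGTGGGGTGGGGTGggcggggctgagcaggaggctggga

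The 3 globin windows shown each held all 4 motifs, as did the Hba-a1 window, against 0.968% of 32851 mouse promoter windows of the same length. The 4 motifs were a fixed choice made for these genes and no others were searched. The contrast with all windows is therefore no test of shared regulation. A forward TATAA began 30 bases before the start of Hba-a2, 29 before Hbb-bs and 28 before Hbb-bt, and 4.23% of all windows had a forward TATAA within their last 40 bases. The Alas2 window held no CCAAT. Its TATAA matches overlapped each other and began 207 and 208 bases before the start, and 3 GGGTG runs lay within its last 40 bases. Singly, TATAA was found in 22.8% of all windows, CCAAT in 33.8% of them, CACCC in 52% and GATAA in 22.6%, so a single match is common. A match describes these letters and is not evidence that a factor binds there. The beta windows of Hbb-bs and Hbb-bt were 73.3% identical over 243 aligned bases, so the alpha pair was the more alike of the pairs upstream.

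The pairs are also alike within their transcripts, which limits what a count assigned to 1 gene means. Aligned transcripts of Hba-a1 and Hba-a2 differed at 1 of 538 bases, and 13.1% of the 50-base stretches of the Hba-a2 transcript were found in no other gene. For Hba-a1 that share was 32.5%. Hbb-bs and Hbb-bt were 92.7% identical over 626 aligned bases, and 34.2% and 41.7% of their 50-base stretches were unique. Every 50-base stretch of Alas2 was unique among annotated transcripts. The labels do not say how reads matching both members of a pair were counted. The split within a pair, the level of the alpha pair against the beta pair, and the level of the globins against other genes are uncertain.

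On the per-length scale, FPKM (fragments per kilobase of exon, scaled to the library total), Hbb-bs was the highest of the 5 genes, with a median of 7.89 over 47 libraries and a range of 0.119 to 29.5. Hba-a1 had a median of 2.33 FPKM, Hbb-bt 0.721, Hba-a2 0.444 and Alas2 0.164. For scale, Alas1, the synthase used outside the erythroid lineage, had a median of 12.1 FPKM in the same libraries, well above Alas2. By these assigned counts all 5 transcripts were present at low level in cortex RNA, with Alas2 the scarcest per length. Globin levels would be underestimated if reads matching both members of a pair were left out.

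The globins varied more between libraries than almost any other gene. Summed CPM of the 4 globins ranged from 0.129 to 33.9 with a median of 8.74, a 263-fold range between the lowest and highest library. Hbb-bs alone ran from 5 counts, or 0.0922 CPM with an exact 95% Poisson interval of 0.0299 to 0.215, to 1205 counts, or 22.8 CPM with an interval of 21.5 to 24.1. These intervals cover counting error only. Both extremes came from Q140 x Ccdc82-/- mice, a male and a female.

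A set of 6 libraries stood apart at the bottom. They held 5 to 15 Hbb-bs counts each, and the other 41 held at least 84. Their summed globin CPM lay between 0.129 and 0.511, against 2.46 to 33.9 in the rest. The 6 comprised a WT male, a Ccdc82-/- male, a Q140 female, a Q140 x Ccdc82+/- female, and a female and a male of Q140 x Ccdc82-/-, with no Ccdc82+/- library among them. All 5 genes were low in all 6: Hba-a1 had 0 to 11 counts, Hba-a2 0 to 3, Hbb-bt 0 to 4 and Alas2 0 to 2. Their totals were ordinary, at 50547874 to 55618660 counts, so the low globin counts did not come with low depth. The number in the library names, whose meaning the labels do not state, was 41 for both the Ccdc82-/- male and the Q140 x Ccdc82-/- male, and these were the only libraries with that number. On the plate that held the RNA, the 6 lay at G3, G1, G6, H3, B2 and F3, in the order named above. Of these, G1, G3 and G6 shared a row, and F3, G3 and H3 shared a column. Each of these rows and columns also held libraries that were not low. The part of plate position was not tested.

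**Figure D1:**
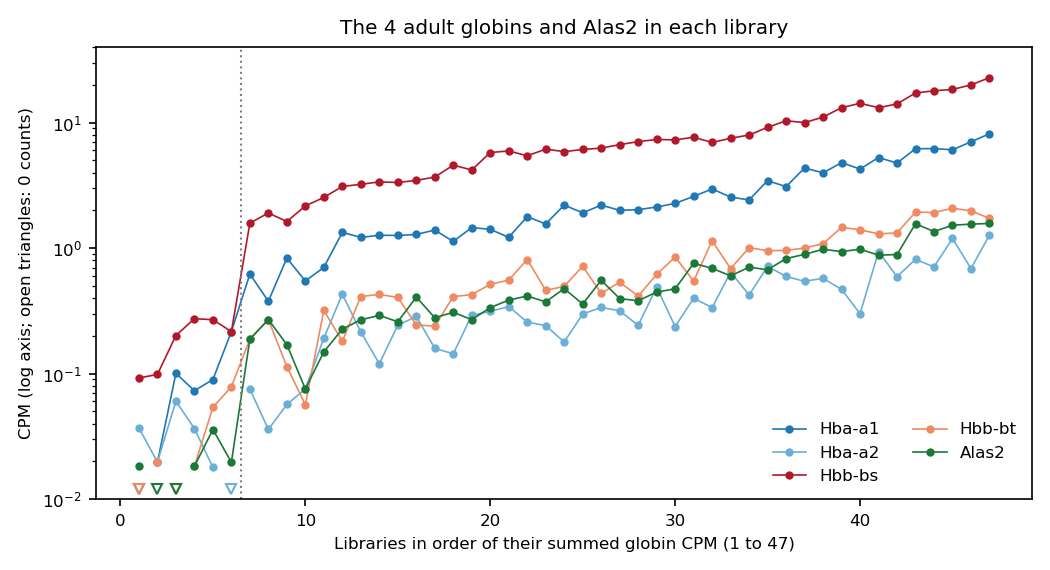
CPM of Hba-a1, Hba-a2, Hbb-bs, Hbb-bt and Alas2 (y axis, log scale) in each of the 47 libraries, ordered by summed globin CPM (x axis). Open triangles are libraries with 0 counts and the dotted line separates the 6 libraries with 15 or fewer Hbb-bs counts from the other 41. Ordering by the summed globins makes the globin lines climb largely by construction, and Alas2, which is outside the sum, climbs with them.

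Counts of 0 occurred in 1 library for Hba-a1, 1 for Hba-a2, 2 for Hbb-bt and 2 for Alas2, all within the 6. Such a count allows a level of up to 0.0603 CPM, the largest value that 3 counts give in those libraries, so a count of 0 does not show absence. Hbb-bs was counted in every library. In the other 41 libraries the lowest and highest summed globin CPM still differed 13.8-fold.

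Within genotype and sex, the SD of log2 CPM was 1.95 for Hbb-bs, larger than that of every other one of the 19174 genes tested. Hba-a1 followed at 1.84, Hbb-bt at 1.52 and Alas2 at 1.43, so these 4 genes held the highest 4 places. Hba-a2 reached 1.26 and was passed by 3 genes outside the haemoglobin set, Xlr4a, Capn11 and Xlr4b, named here after their values were seen. The median gene had an SD of 0.117. The coefficient of variation of CPM was 81% for Hbb-bs, where its mean count of 354 would give 5.31% by counting alone. For Hba-a2, the least counted, the values were 82.4% and 23.5%. Without the 6 low libraries the SDs were between 0.901 for Alas2 and 1.01 for Hbb-bt against a median gene of 0.114, and 8 to 21 genes then varied more than a given member.

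The 5 genes rose and fell together across libraries. Since the 6 low libraries form a cluster of their own, correlations are given over the other 41, on log2 CPM centred on genotype and sex. Pearson's r over the 10 pairs ran from 0.818 for Hba-a2 and Hbb-bt to 0.972 for Hba-a1 and Hbb-bs, and Spearman's rho from 0.782 to 0.972. For each of the 10 pairs the permutation p and its Benjamini-Hochberg adjusted value were 1e-05, the smallest that 100000 permutations can give. Alas2, on another chromosome and with a transcript that shares no stretch with the globins, had r of 0.940 with Hba-a1, 0.936 with Hbb-bs, 0.926 with Hbb-bt and 0.833 with Hba-a2. Leaving out the 2 libraries farthest from the median of the first gene left r between 0.753 and 0.967. RNA was also laid out on a plate, and within the 5 plate columns that kept 6 or more of the 41 libraries r ran from 0.494 to 0.988 over 50 values. Plate column 3 kept 5 libraries, too few for a value. Within the 6 low libraries, where single counts decide a value, r ranged from -0.908 to 0.794.

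The proportions of the members to each other were compared next. Alas2 made up 4.86% of Alas2 and globin counts over all libraries, and the exact 95% binomial interval of 1 library in 47 excluded that share. In the 6 low libraries together the share was 4.55%, with 5 of 110 counts and an exact interval of 1.49% to 10.3%. Hbb-bt made up 9.02% of the beta counts, with 5 of 47 intervals excluding that value. Hba-a2 made up 13% of the alpha counts, with 7 of 47 intervals excluding it. The alpha pair made up 26.3% of globin counts, and 9 of 47 intervals excluded the pooled value. Over the 41 libraries, in which globin CPM differed 13.8-fold, the alpha share ran from 16% to 35%, the Alas2 share from 2.58% to 9.43%, the Hba-a2 share from 6.38% to 24.4% and the Hbb-bt share from 2.54% to 14.1%. In percentage points the alpha share had the widest span. Relative to its lowest value the Hbb-bt share had the widest, on few counts per library. In the 6 low libraries together the alpha share was 33.3% (35 of 105 counts, exact interval 24.4% to 43.2%), the Hba-a2 share 25.7% (9 of 35, 12.5% to 43.3%) and the Hbb-bt share 12.9% (9 of 70, 6.05% to 23%), and each interval holds the value over all libraries.

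The next comparison asked which other genes follow the globin level. The summed globin CPM on the log2 scale, called the globin level below, was added to the model with genotype and sex, and each of the other 19170 genes was tested for a slope in edgeR's quasi-likelihood test with Benjamini-Hochberg adjustment. A slope of 1 means that a gene doubles whenever the globins double. At an adjusted p under 0.05, 1 gene was called, 0.00522% of those tested, and it was Alas2. Its slope was 0.94 (SE 0.038, n = 47 libraries, adjusted p = 9.16e-25), so Alas2 changed nearly in proportion to the globins. Leaving out 1 library at a time kept the slope between 0.92 and 0.97 and the count at 1. Without the 6 low libraries the slope was 0.93 (SE 0.053, adjusted p = 4.79e-17).

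The largest slope of any other gene in the fit of all 47 libraries was -0.24, for the predicted gene Gm37238. Before adjustment 832 genes had p under 0.05, and the median size of a slope was 0.0064. Other settings called a few genes more. Without the 6 low libraries 2 genes passed, 0.0104% of those tested, the other being Nudt9, an ADP-ribose pyrophosphatase, with a slope of -0.051 (SE 0.0097, adjusted p = 0.0444) against -0.0034 in all libraries. DESeq2 called 3 genes in all 47 libraries, adding Mir27b and Gm37238, and plate column as a further term gave 2, adding Gm37238. Alas2 was called in each of these fits.

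**Figure D2:**
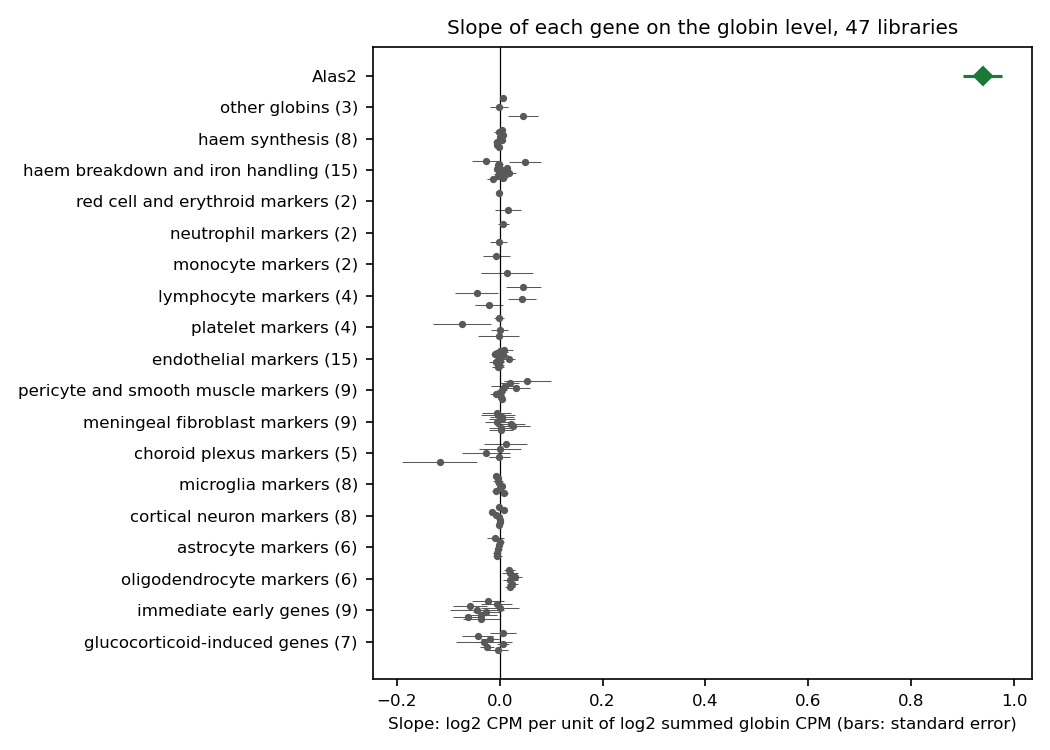
Slope of each gene on the globin level (x axis, change in log2 CPM per unit of log2 summed globin CPM) over 47 libraries, with standard errors as bars; rows are gene lists with the number of tested genes in brackets. Alas2 lies at 0.94, and every listed gene lies between -0.116 and 0.054.

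Pearson's r with the globin level was also taken over the 47 libraries, here without centring on genotype and sex. Among genes outside the 5, those most like the globin level were Rpl35a-ps2 (r = 0.556), Gprin2 (0.518) and Ccl27a (0.513). Over the 41 libraries their r was 0.276, 0.094 and 0.232. For Alas2 the values were 0.966 and 0.952. No gene outside the set came near Alas2 by this measure. The 12 most alike had r from 0.456 to 0.556, and none was called by slope.

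The other enzymes of haem synthesis did not share the behaviour of Alas2. All 8 listed genes were tested, from Alas1 to Fech, the ferrochelatase that inserts iron in the last step, and 0 were called, with slopes from -0.0055 to 0.0058 and a median of -0.0006 beside 0.0003 for all genes. Alas1 had a slope of -0.0017 (SE 0.0046) at its much higher level. Of 15 tested genes of haem breakdown and iron handling, 0 were called, and slopes ran from -0.026 to 0.05. They include Tfrc, the transferrin receptor through which red cell precursors take up iron, at -0.0012 (SE 0.0097), and Slc25a37, the mitochondrial iron importer mitoferrin, at -0.0056 (SE 0.0054).

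Other members of the globin family were either too scarce to test or not called. The embryonic globins Hba-x and Hbb-y totalled 1 and 48 counts over the 47 libraries, and Hbb-bh1 and Hbb-bh2 had 0 counts in all of them. Hbq1a, a theta-like globin of the alpha cluster, had 1046 counts and a slope of 0.045 (SE 0.029, adjusted p = 0.974). Ngb, neuroglobin, had a slope of -0.0009 (SE 0.018), and Cygb, cytoglobin, of 0.007 (SE 0.0061). So 3 of 9 listed globins were testable and 0 were called.

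Markers of other blood and vessel cells were set beside the globins. Of 16 listed red cell and erythroid genes, 15 were in the tables and 2 passed the filter. Slc4a1, the band 3 anion exchanger, had 64 counts over all libraries and Rhag had 0. The list's summed level was 39.3 to 44.5 CPM in the 41 libraries and 41 to 43.7 CPM in the 6 low ones, and most of it was Bpgm, a bisphosphoglycerate mutase gene at 40.8 CPM on average, whose slope was -0.0005 (SE 0.0039). Of 12 neutrophil markers 2 were tested, with slopes of -0.0014 and 0.0067, while S100a8 and S100a9, abundant in circulating neutrophils, had 89 and 96 counts in all. The neutrophil sum was 7.02 to 9.48 CPM in the 41 and 7.6 to 8.52 CPM in the 6 libraries. Most of it was Csf3r, at 6.11 CPM on average, so the sum says little about the scarcer neutrophil markers. Of 9 platelet markers 4 were tested, among them Pf4, platelet factor 4, with a slope of -0.0022 (SE 0.041). The platelet sum was 7.72 to 10.7 CPM in the 41 and 8.41 to 9.85 CPM in the 6. Most of that was Gp1bb, at 7.04 CPM on average, while Pf4 averaged 0.338 CPM and Ppbp had 21 counts in all. For monocyte and lymphocyte markers 2 of 5 and 4 of 13 were tested and 0 were called.

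Endothelial markers gave 15 tested genes and 0 calls, with a median slope of -0.0006 and a summed level of 311.8 to 380.5 CPM in the 41 libraries and 327.2 to 346.3 CPM in the 6. Cldn5, the claudin of the blood-brain barrier, had a slope of -0.0034 (SE 0.011). Pericyte and smooth muscle, meningeal fibroblast, choroid plexus, microglia, neuron, astrocyte and oligodendrocyte markers likewise gave 0 calls. All 6 oligodendrocyte markers had slopes above 0, from 0.019 to 0.031, and 8 of 9 immediate early genes had slopes below 0, with a median of -0.036, but none of these passed the adjusted test. Without the 6 low libraries Mog, a myelin gene, had a slope of -0.0032 and the other 5 oligodendrocyte markers stayed above 0. In that fit all 9 meningeal fibroblast and all 5 tested choroid plexus markers had slopes below 0, with medians of -0.082 and -0.17 against 0.0032 and -0.0004 in all libraries, and again 0 were called (smallest adjusted p 0.694). Over the 18 lists, 0 of 122 tested genes of 172 listed were called, against 0.00522% of all genes.

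Genotype did not separate the libraries. Median summed globin CPM was 8.88 in WT (range 0.401 to 29.6), 13.2 in Ccdc82+/- (2.59 to 26.1), 5.25 in Ccdc82-/- (0.362 to 11.4), 8.81 in Q140 (0.158 to 26.7), 9.42 in Q140 x Ccdc82+/- (0.511 to 20.7) and 6.36 in Q140 x Ccdc82-/- (0.129 to 33.9). The ranges of all 6 genotypes overlapped. In order of the medians, Ccdc82+/- was highest, followed by Q140 x Ccdc82+/-, WT, Q140, Q140 x Ccdc82-/- and Ccdc82-/-, and no neighbours in that order were apart beyond their spread.

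**Figure D3:**
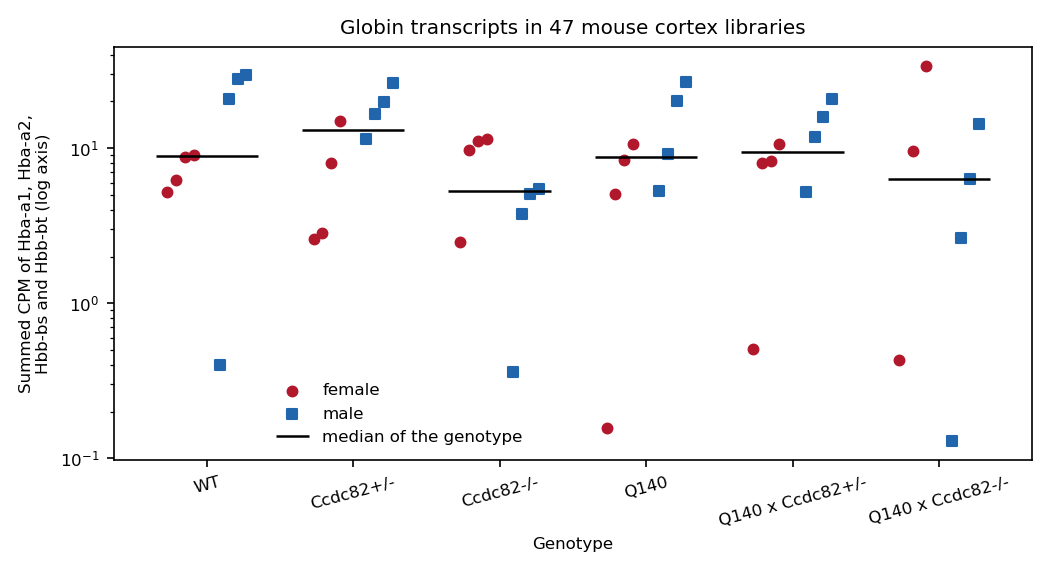
Summed CPM of the 4 globins (y axis, log scale) in each library by genotype (x axis); circles are females, squares are males and the lines are genotype medians. The genotypes overlap throughout, and the 6 low libraries lie between 0.129 and 0.511 CPM in 5 of the 6 genotypes.

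For Hbb-bs the lowest, median and highest CPM were 0.274, 5.99 and 19.9 in WT and 0.0985, 6.2 and 17.9 in Q140. They were 1.9, 8.63 and 17.2 in Ccdc82+/- and 0.216, 6.64 and 14.1 in Q140 x Ccdc82+/-. They were 0.201, 3.39 and 7.64 in Ccdc82-/- and 0.0922, 4.19 and 22.8 in Q140 x Ccdc82-/-. The 8 Ccdc82-/- libraries had the lowest maximum. Q140 libraries spanned nearly the same range as WT, Q140 x Ccdc82+/- reached lower than any Ccdc82+/- library, and Q140 x Ccdc82-/- reached both lower and higher than Ccdc82-/-. For Alas2 the values were 0.0182, 0.417 and 1.55 CPM in WT, 0.0754, 0.757 and 1.56 in Ccdc82+/-, and 0, 0.252 and 0.756 in Ccdc82-/-. With Q140 they were 0, 0.44 and 1.35 in Q140, 0.0196, 0.431 and 0.891 in Q140 x Ccdc82+/-, and 0.0184, 0.269 and 1.57 in Q140 x Ccdc82-/-. Alas2 therefore placed Ccdc82+/- highest and Ccdc82-/- lowest by median, as the globin sum did.

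In edgeR's quasi-likelihood test with Benjamini-Hochberg adjustment over 19174 genes, 0 of the 5 were called in any of 13 comparisons. For Q140 averaged over the Ccdc82 genotypes, where 168 genes or 0.876% were called, the log2 differences of the members were between -0.12 for Alas2 and 0.01 for Hbb-bt (SE 0.34 to 0.39, adjusted p from 0.963). The 95% interval for Hbb-bs in that comparison was -0.8 to 0.79, so differences inside it could not be resolved. Of the 122 tested list genes 4 were called there: Cpox, a haem synthesis gene, was higher with Q140 at 0.08 (adjusted p = 0.00365), and Cd4 (-0.39), the neuronal gene Rbfox3 (-0.07) and the astrocyte glutamate transporter gene Slc1a2 (-0.08) were lower. Against WT, Q140 gave -0.59 to -0.29 (SE 0.58 to 0.64) in a comparison that called 0.0313% of genes. Q140 x Ccdc82+/- against Ccdc82+/-, also at 0.0313%, gave -0.5 to -0.15. Q140 x Ccdc82-/- against Ccdc82-/-, at 0.0209%, gave 0.43 to 0.71. The 2 interactions of Q140 with Ccdc82 genotype called 0% of genes, with member values of -0.2 to 0.44 for Ccdc82+/- and 0.73 to 1.07 (SE 0.88 to 0.96) for Ccdc82-/-. Without adjustment, 0 of 5 members had p under 0.05 in these 6 comparisons, and DESeq2 called 0 of 5 as well.

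The Ccdc82 comparisons each called 0.00522% of genes. Ccdc82-/- against WT gave the largest member differences, -0.97 (SE 0.67) for Hba-a1, -0.64 (SE 0.61) for Hba-a2, -0.96 (SE 0.69) for Hbb-bs, -1.41 (SE 0.66) for Hbb-bt and -0.94 (SE 0.64) for Alas2. The unadjusted p was 0.0379 for Hbb-bt and the adjusted p was 0.999 for each, so none passed the test. Averaged over mice with and without Q140, Ccdc82-/- gave -0.88 (SE 0.47) for Hbb-bt, -0.58 for Alas2, -0.52 for Hbb-bs, -0.44 for Hba-a1 and -0.1 for Hba-a2. Without 1 Q140 x Ccdc82-/- female, the library with the highest globin level, these became -1.29, -1.05, -0.97, -0.94 and -0.53, and with plate row as a term -1.09, -0.78, -0.87, -0.73 and -0.26. None passed the test in either fit. Ccdc82+/- against WT gave -0.15 to 0.06, and averaged over Q140 -0.09 to 0.07. On the Q140 background the values were -0.14 to 0.29 for Ccdc82+/- and -0.34 to 0.43 for Ccdc82-/-. These comparisons share control libraries, and their members share the same libraries, so 5 like values are not 5 separate findings.

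**Figure D4:**
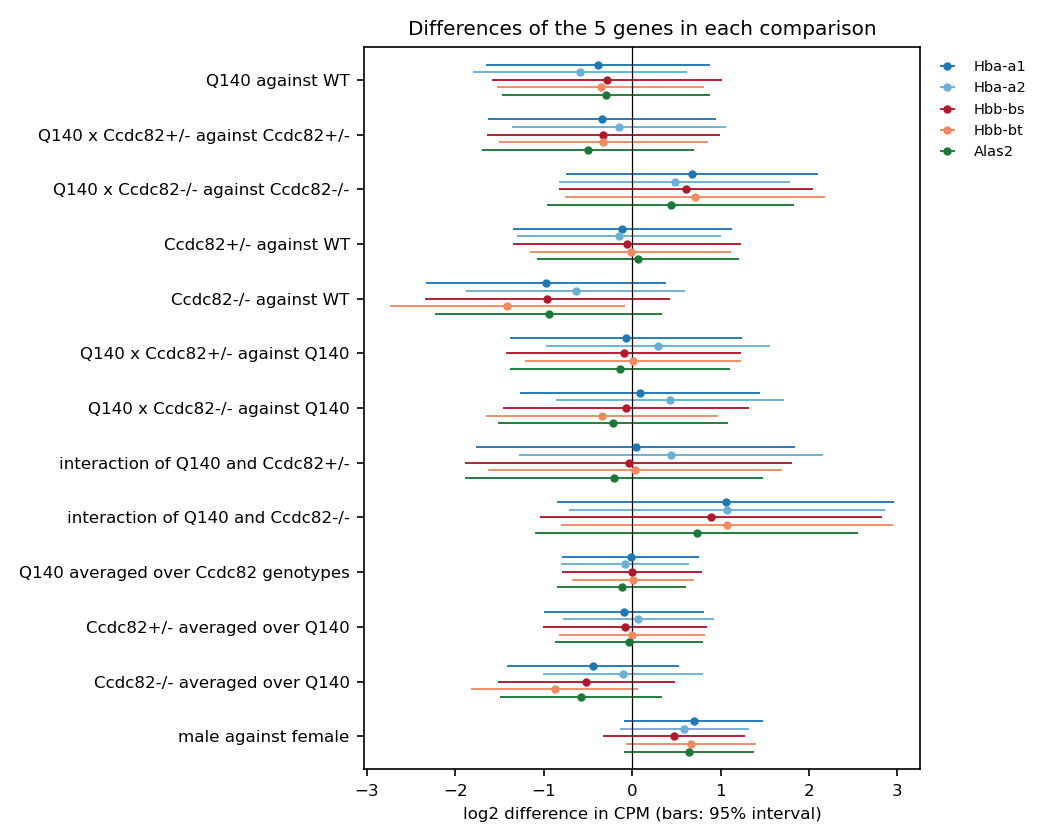
Log2 difference in CPM (x axis) of the 5 genes, by colour, in each of the 13 comparisons (y axis), with 95% intervals as bars. All intervals, which are not adjusted for the genes tested, cross 0 except that of Hbb-bt in Ccdc82-/- against WT.

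Sex gave positive but uncalled values. Females had a median summed globin level of 8.28 CPM (0.158 to 33.9, n = 23) and males 11.6 CPM (0.129 to 29.6, n = 24), with 3 of the low libraries in each sex. The log2 differences of males against females were 0.7 (SE 0.39) for Hba-a1, 0.59 (SE 0.36) for Hba-a2, 0.47 (SE 0.4) for Hbb-bs, 0.66 (SE 0.36) for Hbb-bt and 0.64 (SE 0.36) for Alas2, with edgeR adjusted p of 0.245 to 0.483. This comparison called 10.5% of all genes, and at that background share 0 of 5 is no result about the members. Without the 6 low libraries the values were 0.51 to 0.74, again with 0 of 5 called. Male medians were above female medians in WT (24.2 against 7.5 CPM), Ccdc82+/- (18.3 against 5.43), Q140 (14.7 against 6.73) and Q140 x Ccdc82+/- (13.8 against 8.17). They were below them in Ccdc82-/- (4.39 against 10.4) and Q140 x Ccdc82-/- (4.5 against 9.52). Whether the sex difference depends on genotype was not tested. In the haem and globin lists, Cygb (0.08) and the iron transporter gene Slc11a2 (0.04) were higher in males and Hmox1, which encodes a haem-degrading oxygenase, was lower (-0.14), of 26 genes tested. Endothelial markers, set beside this, gave 3 lower genes of 15 in males, Cldn5 at -0.21, Kdr at -0.19 and Flt1 at -0.08 on the log2 scale. Their part in the globin values was not tested.

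Genotype and sex accounted for no larger share of the globin level than of the median gene. Genotype accounted for 7.42% of its variance and sex for 1.58%, where the median gene had 9.23% and 3.12%. Plate row accounted for 18.9% (median gene 12.3%) and plate column for 14.2% (median gene 11.7%). The number in the library names, with 19 values, accounted for 64.2%, and for 48.8% in the median gene. Every such number occurred in females only or in males only. It was not a term in the fits, so male against female treated libraries with the same number as independent.

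The globin level was also added as a further term to the comparisons of all other genes. With it, male against female called 1717 genes in place of 2017, 843 higher and 874 lower in males. The pooled Q140 comparison called 170 genes, 67 higher and 103 lower, against 168 without it, 65 higher and 103 lower. On the FPKM scale in limma, without the globin level as a term, the pooled Q140 comparison gave 81 higher and 80 lower. None of the 5 genes was among those calls in the fit without the term.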

How the data were processed

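Each library was 1 column of a deposited table of raw read counts per gene, and of a deposited FPKM table that scales counts to exon length and library total. The authors aligned and counted with tools that the submitters' processing notes name as STAR 2.7.5c, SAMtools 1.10 and HTSeq 0.12.3, with the builds GRCm38 and mm10; libraries were Illumina TruSeq stranded, per the labels' protocols. The exon length implied by FPKM equalled the exon union in GENCODE M21 for all 5 members.

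Counts were filtered with filterByExpr (minimum count 10, minimum total 15), scaled with TMM factors; edgeR 4.0.16 then fitted 6 genotype means and a sex term to all 47 libraries. Genes with a Benjamini-Hochberg adjusted p under 0.05 were called. log2 CPM used a prior count of 2. DESeq2 1.42.0 and limma 3.58.1 on log2(FPKM + 0.1) were alternatives. The fit was tested on simulated counts for 19174 genes, where it recovered most of the changed genes it was given. Those were drawn from better expressed genes, and none of the members was among them. The check therefore does not show what difference could be found for the members. Members and gene lists were chosen with earlier results of these data known. Named genes were, by rule, the members, called list genes, and genes with the smallest slope p or the highest r with the globin level; other list genes were named for their role, after their values were seen. The titles' replicate numbers did not pair mice: the median correlation of same-numbered libraries was -0.015 over 115 pairs. Promoters were from RefSeq, and all 5 members matched; protein sequences were not used here.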

Additional observations from a re-analysis of the deposited data

Results flagged for a closer look

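In 4 of the 6 genotypes a single library lay so far below the other 7 that its gap to the nearest of them, as a share of the group's range on the log2 scale, passed Dixon's critical value. Chance flags about 1 in 20 groups, and 19 of 36 groups checked for the 5 genes and their sum were flagged, all at the low end. The same library was the one flagged for each gene within a genotype, so the flags are not separate findings.

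In WT the lowest library, a male, had summed globins of 0.401 CPM (next lowest 5.18), with 0.073 CPM for Hba-a1, 0.274 CPM for Hbb-bs and 0.0182 CPM for Hbb-bt. In Ccdc82-/- the lowest library, a male, had 0.362 CPM (next 2.46), with 0.1005 CPM for Hba-a1, 0.201 CPM for Hbb-bs and 0 CPM for Hbb-bt. In Q140 the lowest library, a female, had 0.158 CPM (next 5.06), with 0.0197 CPM for Hba-a1, 0.0197 CPM for Hba-a2, 0.0985 CPM for Hbb-bs and 0 CPM for Alas2. In Q140 x Ccdc82+/- the lowest library, a female, had 0.511 CPM (next 5.24), with 0.216 CPM for Hba-a1, 0 CPM for Hba-a2, 0.216 CPM for Hbb-bs, 0.0786 CPM for Hbb-bt and 0.0196 CPM for Alas2. In Q140 x Ccdc82-/- 2 of 7 libraries were low, and neither was flagged. The 4 flagged libraries and these 2 are the 6 low libraries of the results above.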

How the results depend on the processing

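The count of called members stayed 0 in all 148 pairings of a comparison with an alternative setting, and in each comparison whichever of the 47 libraries was left out. All 80 alternative correlations between members kept their sign, and Alas2 was called by slope in all 11 alternatives and whichever library was left out. The globin level as a covariate was not applied to the members, which define it. Depth limits the low libraries most, where Hbb-bs rests on 5 to 15 counts and Hba-a2, Hbb-bt and Alas2 on 0 to 4. For pooled Q140 the log2 differences that changed sign were 0.00035 for Hbb-bs with DESeq2; -0.0025 for Hbb-bt without the sex term; -0.031 for Hbb-bt with plate column as a term; -0.16 for Hbb-bt with plate row as a term; -0.11 for Hbb-bt in limma on log2(FPKM + 0.1); -0.052 for Hbb-bt in limma on log2(FPKM + 1); 0.11 for Hba-a1, 0.049 for Hba-a2, 0.15 for Hbb-bs, 0.00103 for Alas2 without the 6 low libraries. Leaving out 1 library at a time, the pooled Q140 values that could change sign ran from -0.46 to 0.0017 for Alas2, -0.39 to 0.069 for Hba-a1, -0.39 to 0.038 for Hba-a2, -0.35 to 0.079 for Hbb-bs, -0.28 to 0.11 for Hbb-bt. For pooled Ccdc82+/- the log2 differences that changed sign were 0.0103 for Hbb-bt with DESeq2; -0.16 for Hba-a2 with plate column as a term; 0.13 for Hba-a1, 0.11 for Hbb-bs, 0.14 for Hbb-bt, 0.19 for Alas2 with plate row as a term; 0.15 for Hba-a1, 0.20 for Hbb-bs, 0.19 for Hbb-bt, 0.049 for Alas2 in limma on log2(FPKM + 0.1); 0.013 for Hba-a1, 0.088 for Hbb-bs, 0.054 for Hbb-bt, 0.0017 for Alas2 in limma on log2(FPKM + 1); -0.023 for Hba-a2 without the 6 low libraries. Leaving out 1 library at a time, the pooled Ccdc82+/- values that could change sign ran from -0.15 to 0.10 for Alas2, -0.19 to 0.062 for Hba-a1, -0.029 to 0.25 for Hba-a2, -0.18 to 0.062 for Hbb-bs, -0.11 to 0.16 for Hbb-bt. For pooled Ccdc82-/- the log2 differences that changed sign were 0.038 for Hba-a2 with DESeq2; 0.053 for Hba-a2 without the 6 low libraries. Leaving out 1 library at a time, the pooled Ccdc82-/- values that could change sign ran from -0.53 to 0.065 for Hba-a2. None of these passed the test (smallest adjusted p 0.905), and the cause was not tested. Counts of called genes moved as follows: Q140 against WT from 6 to 16 with DESeq2, Q140 x Ccdc82+/- against Ccdc82+/- from 6 to 2 with plate column as a term and to 3 with those genotypes alone, pooled Q140 from 168 to 97 with plate row as a term, and male against female from 2017 to 3124 without the 6 low libraries. Male against female split into 1008 higher and 1009 lower genes, and into 1410 and 805 in limma on log2(FPKM + 0.1). The number of genes following the globin level was 1, and became 2 with plate column as a term, 3 with DESeq2 and 2 without the 6 low libraries, where the slope of Mir212 turned from -0.12 to 0.014. With 1 library left out, Q140 against WT called 4 to 17 genes, Q140 x Ccdc82+/- against Ccdc82+/- 3 to 17, and Q140 x Ccdc82-/- against Ccdc82-/- 2 to 5, and the highest counts of 17 came without 1 WT female and without 1 Ccdc82+/- male.

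With the replicate number as a block, the replicate block called 2 genes in Q140 x Ccdc82-/- against Ccdc82-/- in place of 4, gave -0.0014 for Hbb-bt in pooled Q140, called 1 gene by slope and changed no other call on the members. Same-numbered libraries did not deviate together: 6 of 115 pairs had a correlation over 0.1.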
